A study of Pararge aegeria with 4 samples.

Results

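The genes described here are those of the proteasome, the particle that breaks down proteins tagged with ubiquitin, in the ovary of the Speckled Wood butterfly Pararge aegeria. Members were the contigs with the word proteasome anywhere in their annotation, or with a symbol that starts with Prosalpha, Prosbeta, Rpn or Rpt. The rule found 61 of the 17636 annotated contigs, and these lie in 47 of the 9873 genes that the assembler Trinity built from them. By their names, 14 of the 47 genes belong to the 20S core, 5 to the base of the 19S cap, 10 to its lid and 13 to the assembly factors and regulators. The other 5 carry no proteasome name. Of these, a WD repeat-containing protein 26 and a pair of hypothetical proteins were matched by a GO term, and the remaining 2 are the TOR partner raptor, whose symbol rptor begins with the same letters as Rpt. The rule also left out 5 subunits that the annotation calls 26S protease or proteasomal, namely PSMC1, PSMC2, PSMC3, PSMC5 and ADRM1. With them, all 33 canonical subunits of the 26S particle were found in the assembly, 28 of them through the rule. The 5 subunits left out are described beside the members and not counted with them.

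The libraries compared were 1 mRNA library of Zonza ovaries, from Corsica, and 1 of St Hubert ovaries, from the south of Belgium, each made from a pair of females of a laboratory-reared population. The Zonza stock was newly founded and the St Hubert stock had been in the laboratory for years. All females were adult, mated, untreated and kept in the same conditions, and their ovaries were taken at the peak of egg production and freed of fat and surrounding tissue. With 1 library per population no test was made, and a difference between the populations cannot be told apart from one between these females, stocks or libraries.

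The 20S core is a barrel of stacked rings. Its alpha subunits form the outer rings and the gate, and its beta subunits form the inner rings, some of which hold the proteolytic sites. The 19S particle caps the barrel, where a ring of ATPases in the base unfolds the substrate and pulls it in, and the lid cuts off the ubiquitin chain. Subunits sit in the particle in fixed proportions. In insect ovaries with nurse cells, as in butterflies, these cells load the growing egg with mRNA and protein that the early embryo uses. Protein turnover by the proteasome is part of oocyte maturation and of the passage from egg to embryo.

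Levels are FPKM, the number of fragments scaled to contig length and to the depth of the library, summed over the contigs of a Trinity gene. Since FPKM is per length, levels of different genes may be set side by side, as far as each contig holds the transcript of that gene alone. Whether each contig does was not tested. The steps between low values corresponded to about 20000000 mapped fragments in Zonza and 21100000 in St Hubert, so that the least covered subunit rests on an estimated 2330 fragments in Zonza and 2274 in St Hubert. For the 36 members of a single contig, the 95% counting interval of the ratio reached 0.07 to either side on the log2 scale at the median. These intervals cover counting error only and say nothing of the spread between females. Germ line markers of the labelled tissue were present, with 5 genes (nanos, vasa and piwi) at 1063 FPKM in all in Zonza and 1304 FPKM in St Hubert. Chorion (eggshell) genes were higher in Zonza in 12 of 12, with 9586 FPKM in all in Zonza and 2711 in St Hubert. Of all 9459 genes with a mean of at least 1 FPKM, 4662 were higher in Zonza. Fat body markers summed to 2373 FPKM in Zonza and 431 in St Hubert (3 genes). Apolipophorin-III alone had 2086 FPKM in Zonza and 319 FPKM in St Hubert. All 3 were at least 2-fold higher in Zonza, against 5.2% of all genes. Muscle markers summed to 438 FPKM in Zonza and 490.4 FPKM in St Hubert (9 genes). Of these, tropomyosin 1 alone had 235 FPKM in Zonza and 222 FPKM in St Hubert. In Zonza 7 of the muscle markers were lower and 2 higher, against 4789 lower and 4662 higher over all 9459 genes. Haemocyte markers summed to 2.04 FPKM in Zonza and 8.11 FPKM in St Hubert (4 genes). More cells of a type and more RNA per cell cannot be told apart in such libraries, and the part of these markers in the values below was not tested.

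Proteasome genes were among the abundant mRNAs of both ovaries, and their levels were close between them. The median of the 29 genes of the 20S core and 19S particle was 165 FPKM in Zonza and 169 FPKM in St Hubert, which is the 95.7th percentile of all genes in Zonza and the 95.9th in St Hubert. No member was 2-fold higher or lower in Zonza (0 of 47), where 10.3% of all 9459 genes with a mean of at least 1 FPKM were (5.2% higher and 5.11% lower). Within 1.25-fold lay 35 of the 47 members (74.5%), against 54.6% of all genes. Genes of at least 100 FPKM are measured more precisely, and among these 27 of 29 members (93.1%) lay within 1.25-fold, against 68.4% of all such genes, of which 9.91% passed 2-fold. The median log2 ratio was 0.04 for the 20S core, -0.02 for the 19S base, -0.05 for the lid and -0.18 for the assembly factors and regulators, against -0.01 over all genes. These counts rest on sums over contigs, and 1 subunit, PSMA1, is beyond 2-fold when its own contig is read alone (described with the alpha subunits). PSMA1 counts as within 1.25-fold only through its sum, and by named contigs 34 of the 47 members lay within 1.25-fold.

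**Figure D1:**
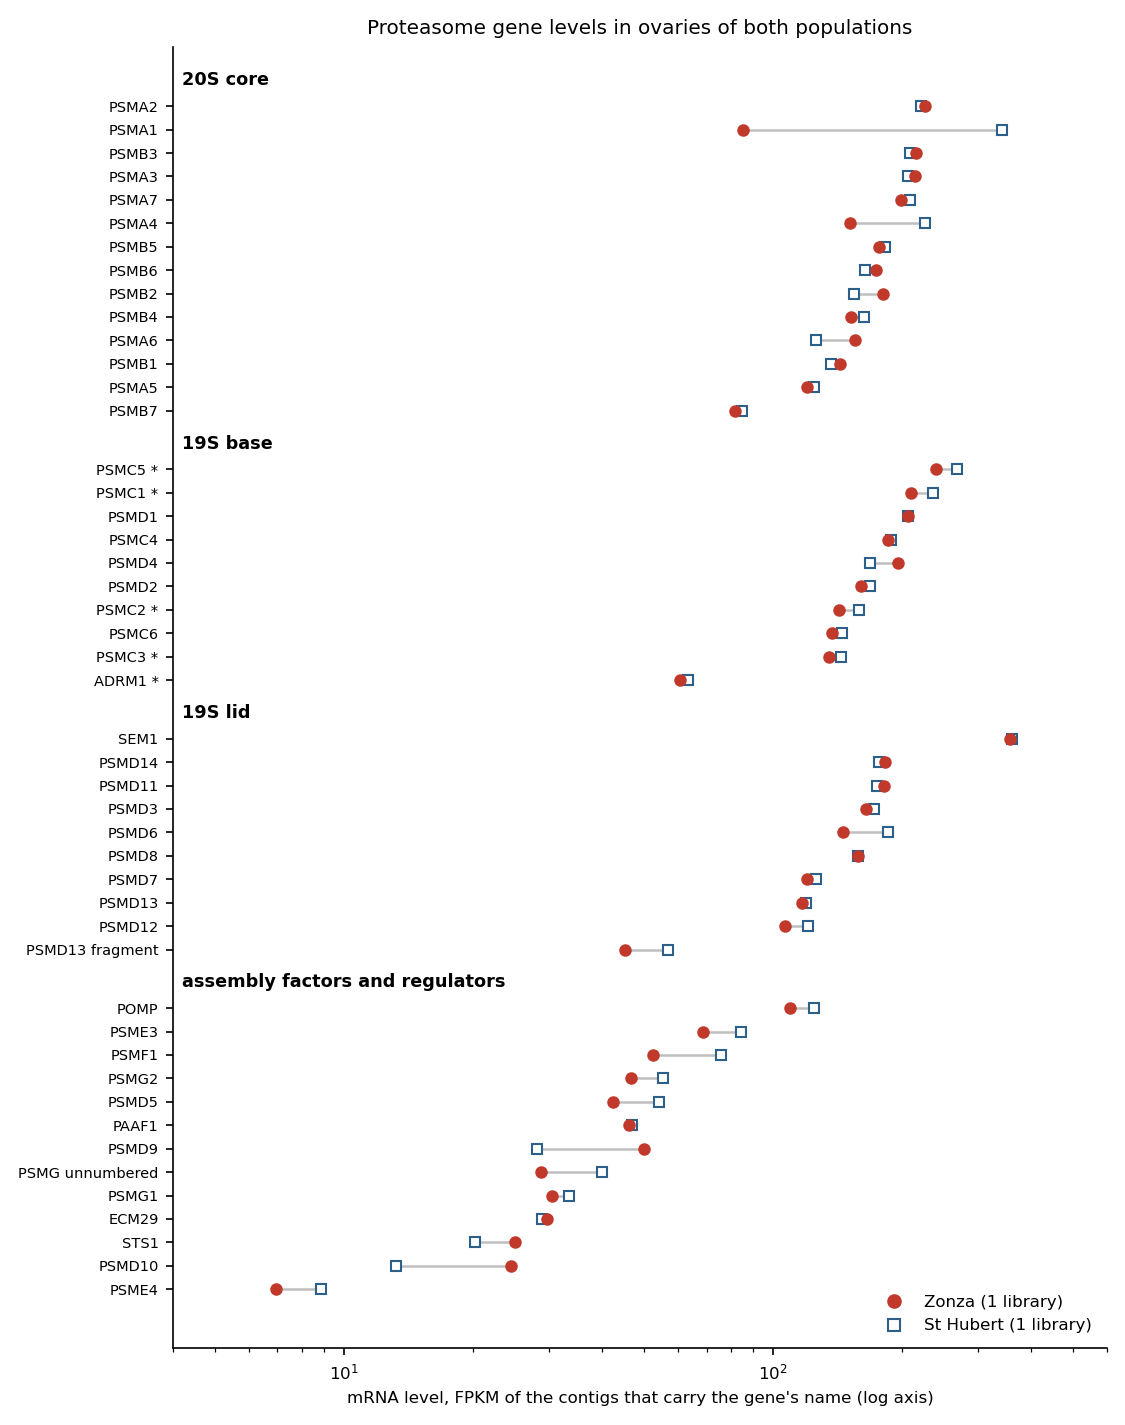
Level of each named proteasome gene in the Zonza library (filled circles) and the St Hubert library (open squares), as FPKM on a log axis, with 1 library per population and no error bars. Only the contigs that carry the gene's name are summed, and an asterisk marks a subunit the rule did not match. Most subunits sit between 100 and 300 FPKM with both symbols close together, while PSMA1 lies at 85.2 FPKM in Zonza and 341 FPKM in St Hubert.

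Of the alpha subunits, which form the outer rings, PSMA2 had 226 FPKM in Zonza, the highest there among those in a Trinity gene of their own, and 221 FPKM in St Hubert. PSMA3 had 214 FPKM in Zonza and 206 FPKM in St Hubert, and PSMA7 had 199 FPKM in Zonza and 208 FPKM in St Hubert. These 3 differed by less than 5% between the libraries. PSMA5 was the lowest of those in a Trinity gene of their own, with 119.8 FPKM in Zonza and 125 FPKM in St Hubert. PSMA6 was higher in Zonza, with 155 FPKM there and 126 FPKM in St Hubert.

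PSMA4, the alpha3 subunit, whose tail takes part in closing the gate in yeast, had the largest difference among subunits with a contig of their own. Its level was 151 FPKM in Zonza and 226 FPKM in St Hubert, a ratio of 0.666 with a counting interval of 0.633 to 0.701 and a log2 ratio of -0.58. It rests on 2469 estimated fragments in Zonza and 3909 in St Hubert, so the difference is well outside counting error. It is also outside the quartiles of all genes, at log2 ratios of -0.29 and 0.28, and inside their 5th and 95th percentiles, at -1.01 and 1.02.

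The direction of the difference in PSMA1, the alpha6 subunit, depended on how its contigs are read. Trinity placed its contig, of 3517 bases, in one gene with a mitochondrial contig of 1605 bases named cytochrome c oxidase subunit III. The PSMA1 contig had 85.2 FPKM in Zonza and 341 FPKM in St Hubert, a log2 ratio of -1.99. The mitochondrial contig had 1092 FPKM in Zonza and 609 FPKM in St Hubert, and the gene as a whole came to 1178 FPKM in Zonza and 950.1 FPKM in St Hubert (log2 ratio 0.31). The sum therefore follows the mitochondrial contig, and the subunit's own contig goes the other way. At 3517 bases that contig is also longer than those of the other 6 alpha subunits (838 to 1649 bases), and its GO terms include carbohydrate metabolic process, which is no term of a proteasome subunit. Whether all of its fragments belong to PSMA1 was not tested, and the contig was singled out after its values had been seen. Without PSMA1, the 6 alpha subunits summed to 1065 FPKM in Zonza and 1113 FPKM in St Hubert.

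The beta subunits, which form the inner rings, differed less. All 7 lay within 1.25-fold, and by the contigs that carry their names they summed to 1123 FPKM in Zonza and 1094 FPKM in St Hubert. PSMB5, which holds the chymotrypsin-like site, had 176 FPKM in Zonza and 183 FPKM in St Hubert. PSMB6, with the caspase-like site, had 174 FPKM in Zonza and 164 FPKM in St Hubert. PSMB7, with the trypsin-like site, was the lowest of the core, and here too Trinity joined a foreign contig, of 1756 bases, named UDP-glucose pyrophosphatase. Its named contigs summed to 81.7 FPKM in Zonza and 84.7 FPKM in St Hubert, and the whole gene to 108 FPKM in Zonza and 116 FPKM in St Hubert (log2 ratio -0.10). By these values PSMB5 and PSMB6 were close together, and PSMB7 was at the bottom of the core in both libraries. The named contigs of PSMB7 are 3085 to 3516 bases long, against 815 to 1012 bases for the other beta subunits. FPKM is scaled to contig length, and whether all of these bases belong to PSMB7 was not tested.

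The other 4 beta subunits have no proteolytic site. PSMB3 was the highest of all beta subunits, with 216 FPKM in Zonza and 209 FPKM in St Hubert. PSMB2 was somewhat higher in Zonza, at 180.1 FPKM against 155 FPKM in St Hubert. PSMB4 had 152 FPKM in Zonza and 163 FPKM in St Hubert, and PSMB1 had 143 FPKM in Zonza and 136 FPKM in St Hubert. Each was measured from a single contig, and none was as low as PSMB7.

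**Figure D2:**
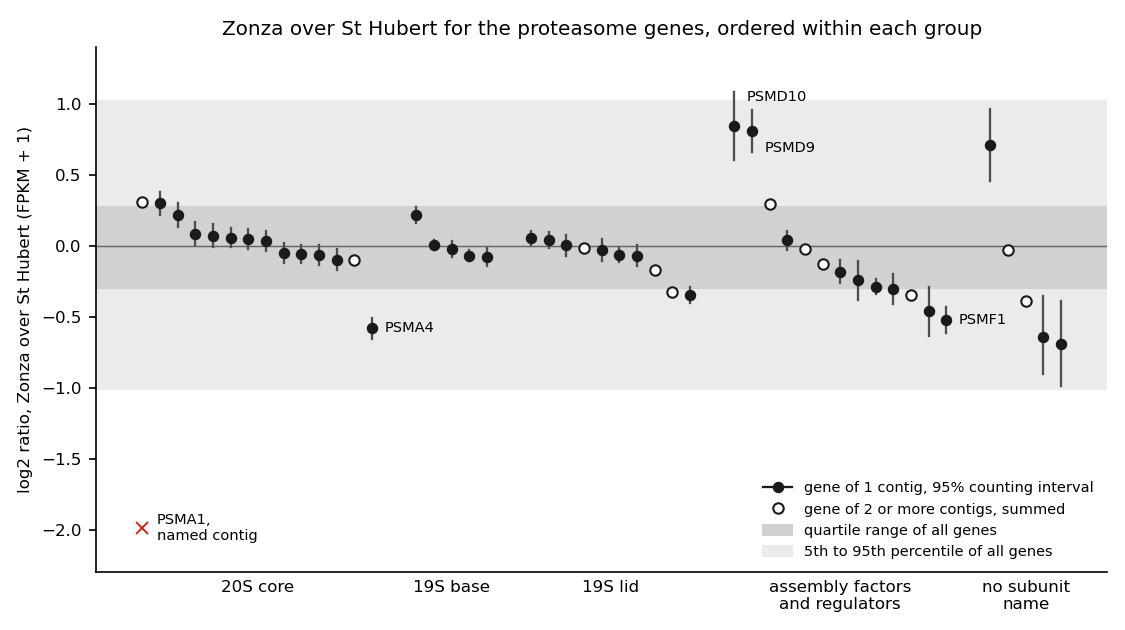
Log2 ratio of Zonza over St Hubert, on FPKM + 1, for the 47 proteasome genes, ordered within each group from high to low. Filled points are genes of 1 contig with their 95% counting interval, open points are genes of 2 or more contigs without one, and the dark band spans the quartiles and the light band the 5th to 95th percentiles of all 9459 genes. No summed gene reaches 1 or -1, and the cross shows the PSMA1 contig alone at -1.99.

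The ATPases of the base, which form the unfolding ring, were all somewhat lower in Zonza, and all within 1.25-fold. Over all genes, 4789 of 9459 were lower and 54.6% lay within 1.25-fold. Of the other complexes described below, the chaperonin TRiC had 8 of 9 genes lower, eIF3 10 of 14 and the COP9 signalosome 2 of 8. PSMC4 (Rpt3) had 185 FPKM in Zonza and 189 FPKM in St Hubert, with a counting interval of the ratio that included 1 (0.945 to 1.02). PSMC6 (Rpt4), the lowest of the matched base subunits, had 137 FPKM in Zonza and 145 FPKM in St Hubert, a log2 ratio of -0.08. The other 4 ATPases were not matched by the rule, and they complete the ring. PSMC5 (Rpt6) had 239 FPKM in Zonza and 269 FPKM in St Hubert, and PSMC1 (Rpt2) had 209.6 FPKM in Zonza and 236 FPKM in St Hubert. PSMC2 (Rpt1) had 143 FPKM in Zonza and 159 FPKM in St Hubert, and PSMC3 (Rpt5) had 135 FPKM in Zonza and 144 FPKM in St Hubert. The 6 log2 ratios ran from -0.17 to -0.02 with a median of -0.12, and each sits between the quartiles of all genes. Their mean BLASTx similarity to database proteins was between 95.5% and 98.2%.

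The non-ATPase subunits of the base comprise the large scaffolds PSMD1 (Rpn2) and PSMD2 (Rpn1) and the ubiquitin receptors PSMD4 (Rpn10) and ADRM1 (Rpn13). PSMD1 was the highest matched base subunit and nearly equal between the libraries, with 207 FPKM in Zonza and 206 FPKM in St Hubert (log2 ratio 0.01), from 14385 estimated fragments in Zonza and 15112 in St Hubert. PSMD2 had 161 FPKM in Zonza and 169 FPKM in St Hubert. The receptors differed in level from each other. PSMD4 had 196 FPKM in Zonza and 168 FPKM in St Hubert, whereas ADRM1, which the rule did not match, had 60.5 FPKM in Zonza and 63.4 FPKM in St Hubert and was the lowest of all 33 subunits in both.

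In the lid, PSMD14 (Rpn11) is the enzyme that cuts ubiquitin from the substrate, and PSMD7 (Rpn8) is its partner. PSMD14 had 182 FPKM in Zonza and 177 FPKM in St Hubert, and PSMD7 had 119.8 FPKM in Zonza and 126 FPKM in St Hubert. The enzyme was thus the higher of the pair in both libraries.

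The remaining lid subunits build the horseshoe-shaped frame of the particle. PSMD11 (Rpn6), which clamps the cap to the core, had 181 FPKM in Zonza and 175 FPKM in St Hubert. PSMD3 (Rpn3) had 165 FPKM in Zonza and 172 FPKM in St Hubert, and PSMD8 (Rpn12) had 158 FPKM in both. PSMD13 (Rpn9) had 117 FPKM in Zonza and 119 FPKM in St Hubert. The lid subunit furthest from equal was PSMD6 (Rpn7), with 145 FPKM in Zonza and 185 FPKM in St Hubert (counting interval of the ratio 0.754 to 0.818). A second Trinity gene that matched PSMD13 only in an earlier transcriptome consists of 2 short contigs and had the lowest level of the group, at 45.1 FPKM in Zonza and 56.9 FPKM in St Hubert (log2 ratio -0.33). It is read as a fragment and not as a subunit.

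SEM1 (DSS1), a small acidic lid protein that also serves other complexes, was the most abundant subunit, with 357 FPKM in Zonza and 360.2 FPKM in St Hubert (log2 ratio -0.01). Its sum was nearly equal, yet its contigs were not. The contig of 469 bases had 179 FPKM in Zonza and is listed at 0 in St Hubert, and the contig of 507 bases had 178 FPKM in Zonza and 360.2 FPKM in St Hubert. The best match of both in an earlier transcriptome of this species is Cyclin B3, so the identity of SEM1 rests on the BLASTx name alone.

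PSMD12 (Rpn5) showed the same division in full. It has a contig of 2339 bases with 107 FPKM in Zonza that is listed at 0 in St Hubert, and a contig of 2333 bases listed at 0 in Zonza that had 120.4 FPKM in St Hubert. As a gene it came to 107 FPKM in Zonza and 120.4 FPKM in St Hubert, and was the lowest of the 9 lid subunits in Zonza. PAAF1, a chaperone of the base, was divided in the same way, with 46.2 FPKM in Zonza on a contig of 1878 bases and 47.0 FPKM in St Hubert on one of 1865 bases, each listed at 0 in the other library. PSMB7 had a contig of 3089 bases with 29.4 FPKM in Zonza that is listed at 0 in St Hubert, beside contigs present in both. In all, 4 of the 11 members with 2 or more contigs had a contig listed at 0 in 1 library and at 10 FPKM or more in the other, and 2 of them had such contigs in both directions. Among all genes of 2 or more contigs these shares were 24.4% and 6.28%. Read one contig at a time, 9 of 58 matched contigs (15.5%) were past 2-fold, 4 higher and 5 lower in Zonza, against 39.7% of all contigs. These 2 shares differ in make-up, as 11 of the 47 members have 2 or more contigs, against 4154 of all 9459 genes. Whether such contigs are alleles, isoforms or a division made by the assembler cannot be told from the deposited values.

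**Figure D3:**
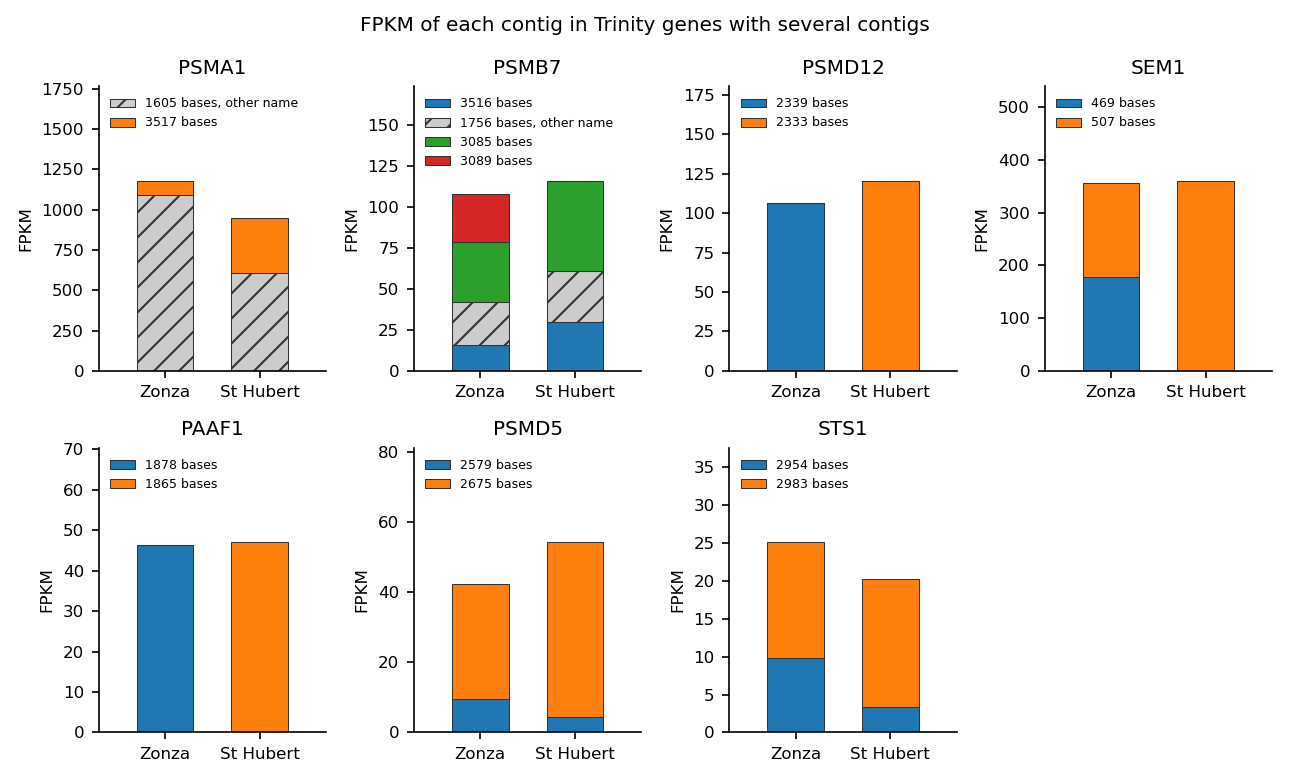
FPKM of each contig, stacked, in the Zonza library (left bar) and the St Hubert library (right bar) for 7 proteasome genes with several contigs, identified by contig length in bases. Hatched grey contigs carry the name of another gene. PSMD12 and PAAF1 are read from a different contig in each library at nearly equal height, and in PSMA1 the mitochondrial contig outweighs the subunit's own.

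Levels of the subunits did not vary widely among themselves. By the contigs that carry their names, 31 of the 33 subunits in Zonza and 30 in St Hubert lay within 2-fold of the median subunit, which was 161 FPKM in Zonza and 169 FPKM in St Hubert. The SD of the log2 levels was 0.49 in both libraries, against 1.81 in Zonza and 1.78 in St Hubert over all genes. The order of levels was also alike, with a Spearman rho of 0.74 across the 33 subunits and 0.86 across 31 of them without PSMA1 and SEM1. This is a description across genes, and both libraries were read on the same contigs with the same lengths. Together the 33 subunits made up 0.993% of all FPKM in Zonza and 1.08% in St Hubert, with sums of 5477 FPKM in Zonza and 5887 FPKM in St Hubert. Without PSMA1 the sums were 5392 FPKM in Zonza and 5545 FPKM in St Hubert, a ratio of 0.972. In contrast to this, the 29 matched genes summed over every contig gave 5854 FPKM in Zonza and 5713 FPKM in St Hubert, a ratio of 1.02, so the direction of the summed level depends on the mitochondrial contig.

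Assembly factors and regulators were expressed below most of the subunits. Their median was 42.4 FPKM in Zonza and 40.01 FPKM in St Hubert, and the median subunit was 3.79 times as high in Zonza and 4.21 times as high in St Hubert. The median regulator was still at the 76.9th percentile of all genes in Zonza and the 75.8th in St Hubert. By named contigs, 12 of the 13 lay below the lowest matched subunit in each library. Most genes lie below that subunit too, as PSME3, a regulator below it, was at the 88.0th percentile in Zonza and the 90.8th in St Hubert. Below ADRM1, the lowest of all 33 subunits, lay 11 of the 13 in Zonza and 10 in St Hubert. ADRM1 itself was at the 85.7th percentile of all genes in Zonza and the 86.8th in St Hubert, so these counts do not set the regulators apart from other genes. The regulator above the lowest matched subunit was POMP, the maturation factor that joins the beta rings and is itself degraded by the new core in yeast, with 109.7 FPKM in Zonza and 125 FPKM in St Hubert (log2 ratio -0.18). It was also the highest of the group. The chaperones that build the alpha ring were lower. PSMG1 had 30.5 FPKM in Zonza and 33.5 FPKM in St Hubert, and PSMG2, its partner, had 46.7 FPKM in Zonza and 55.5 FPKM in St Hubert. A further assembly chaperone that the annotation does not number had 28.8 FPKM in Zonza and 40.01 FPKM in St Hubert, a log2 ratio of -0.46 and by gene sums the third lowest among the named members.

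The base of the cap is put together by 4 dedicated chaperones, known from yeast and human cells, and these went in different directions. PSMD10 (gankyrin) had 24.5 FPKM in Zonza and 13.2 FPKM in St Hubert, a ratio of 1.85 (counting interval 1.56 to 2.20) and a log2 ratio of 0.84. PSMD9 (p27) had 50.0 FPKM in Zonza and 28.2 FPKM in St Hubert, a ratio of 1.78 (1.60 to 1.97) and a log2 ratio of 0.81. These are the highest ratios of any named member. They exceed counting error but lie below 2-fold and under the 95th percentile of all genes, although the interval of PSMD10 reaches past 2-fold. PAAF1 was level at 46.2 FPKM in Zonza and 47.0 FPKM in St Hubert. PSMD5 had 42.4 FPKM in Zonza and 54.3 FPKM in St Hubert, but the BLASTx name of both its contigs is that of a DnaJ protein and only the earlier transcriptome names PSMD5. The ATPases that these chaperones bind had log2 ratios between -0.17 and -0.02.

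Among the factors that bind the finished particle, PSMF1 (PI31), a regulator that inhibits the core in the test tube and links proteasomes to axonal transport in the fly, had 52.6 FPKM in Zonza and 75.8 FPKM in St Hubert. Its ratio was 0.694 (counting interval 0.650 to 0.740) and its log2 ratio -0.52, the lowest in this group. PSME3 (PA28gamma), the nuclear activator that opens the core without ubiquitin, had 68.7 FPKM in Zonza and 84.1 FPKM in St Hubert. The other activator, PSME4 (PA200), was the lowest member of the group, with 6.96 FPKM in Zonza and 8.84 FPKM in St Hubert (log2 ratio -0.31). ECM29, a large protein that clamps core and cap, had 29.7 FPKM in Zonza and 28.9 FPKM in St Hubert. A gene named after the yeast factor STS1, which tethers proteasomes to the nucleus, had 25.1 FPKM in Zonza and 20.2 FPKM in St Hubert.

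The group of regulators also stood apart from the subunits in a feature the rule did not use. Their BLASTx similarity to database proteins is a mean over the matches of a contig, and the highest contig of each gene was used. It had a median of 63.5% (54.4% to 85.7%, n = 13). It was 89.4% in the 20S core (76.8% to 94.7%, n = 14), 95.2% in the matched base (77.8% to 97.3%, n = 5) and 87.7% in the lid (71.8% to 97.5%, n = 9). The lowest values in the 19S particle belong to PSMD6, PSMD13 and PSMD2, and the highest regulator is PSME3. Not every regulator was matched under its own name. The value of PSMD5 (71.35%) carries the name of a DnaJ protein, and those of STS1 (63.5%) and the unnumbered chaperone (72.5%) the names of hypothetical proteins. That of PSMG1 (54.36%) comes from a contig named CG2046, while its contig named proteasome assembly chaperone 1 had 50.95%. The similarity depends on which species the database holds for each gene, and no test was made.

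Among the 5 members without a proteasome name, the hypothetical protein of 1 contig had 9.48 FPKM in Zonza and 5.41 FPKM in St Hubert, and that of 5 contigs had 22.2 FPKM in Zonza and 22.7 FPKM in St Hubert. WD repeat-containing protein 26 had 6.68 FPKM in Zonza and 11.4 FPKM in St Hubert. The raptor genes had 2.15 and 1.76 FPKM in Zonza and 3.91 and 2.62 FPKM in St Hubert. None passed 2-fold, and all lay below the subunits.

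Substrates reach the proteasome through ubiquitin, which an E1 enzyme activates, E2 enzymes carry and ligases attach. The 41 genes listed by name for this pathway also include shuttle factors, deubiquitinases and 2 genes of the transcription factor cap'n'collar. Of the 41, 1 was more than 2-fold higher in Zonza, 1 (cap'n'collar) more than 2-fold lower, and 32 lay within 1.25-fold. Over all genes, 5.2% were 2-fold higher, 5.11% were 2-fold lower and 54.6% lay within 1.25-fold. The median log2 ratio of the pathway was -0.02. Ubiquitin itself was far above any subunit, as its highest polyubiquitin gene had 8629 FPKM in Zonza and 8033 FPKM in St Hubert. The E1 enzyme Uba1 had 108 FPKM in Zonza and 135 FPKM in St Hubert, within the range of the subunits, and the 18 E2 genes had a median of 32.5 FPKM in Zonza and 32.2 FPKM in St Hubert. TER94, the ATPase that extracts ubiquitin-tagged proteins from complexes and membranes, had 306 FPKM in Zonza and 359 FPKM in St Hubert. Rad23, which shuttles tagged proteins to the particle, had 151 FPKM in Zonza and 179 FPKM in St Hubert.

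The gene that passed 2-fold downwards is annotated as cap'n'collar, a transcription factor whose long form drives proteasome genes in the fly. It had 11.3 FPKM in Zonza and 25.4 FPKM in St Hubert (log2 ratio -1.10), and a second Trinity gene of that name had 8.58 FPKM in Zonza and 13.3 FPKM in St Hubert (log2 ratio -0.58). The 29 subunit genes had a median log2 ratio of -0.02 by gene sums. A link between the level of cap'n'collar and theirs was not tested. The gene that passed upwards, an E2Q-like enzyme, had 1.86 FPKM in Zonza and 0.25 FPKM in St Hubert. It lies close to the minimum mean of 1 FPKM, so its ratio rests on few fragments.

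Other complexes of many subunits were read in the same way. The COP9 signalosome and eIF3 share their subunit folds with the 19S lid, and TRiC is the chaperonin that folds actin and tubulin. No gene of the 3 complexes passed 2-fold, where 10.3% of all genes did. Within 1.25-fold lay 6 of 8 COP9 genes, 12 of 14 eIF3 genes and 8 of 9 TRiC genes, beside 26 of the 29 subunit genes of the proteasome. By named contigs and without the PSMD13 fragment, the proteasome count was 25 of 28. Over all genes this share was 54.6%, and over those of at least 100 FPKM it was 68.4%. Median log2 ratios were 0.03 for COP9, -0.10 for eIF3 and -0.10 for TRiC. In level, the proteasome subunits stood with eIF3, at a median of 169 FPKM in Zonza and 184 FPKM in St Hubert, and TRiC, at 162 FPKM in Zonza and 175 FPKM in St Hubert. COP9, with 56.4 FPKM in Zonza and 52.1 FPKM in St Hubert, lay nearer to the proteasome regulators. The SD of log2 levels was 0.46 in Zonza and 0.38 in St Hubert for COP9, and 0.47 in Zonza and 0.43 in St Hubert for TRiC. The even levels of the proteasome subunits, with an SD of 0.49, were thus shared by these complexes. For eIF3, whose list holds a fragment of subunit b, it was 1.63 in Zonza and 1.52 in St Hubert.

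**Figure D4:**
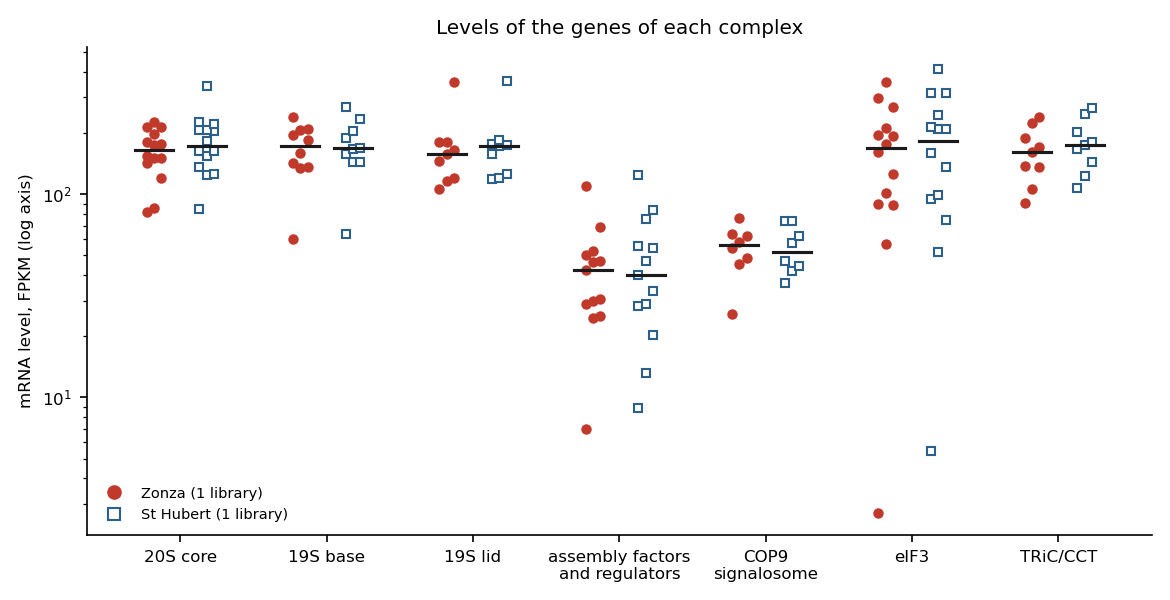
FPKM on a log axis of each gene of the proteasome groups, by the contigs that carry its name, and of the COP9 signalosome, eIF3 and TRiC, summed over all contigs, in the Zonza library (filled circles, left) and the St Hubert library (open squares, right). Bars mark medians. The base includes the 5 subunits the rule did not match, and the PSMD13 fragment is left out of the lid. Read so, the 3 subunit groups, eIF3 and TRiC sit between 158 and 184 FPKM in their medians, and the regulators and COP9 between 40.01 and 56.4 FPKM. The lowest eIF3 point is a short fragment of subunit b.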

How the data were processed

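The authors trimmed the reads of both mRNA libraries, assembled them together with Trinity, estimated FPKM per contig and library with RSEM (Bowtie is named in the submitters' processing notes), removed contigs without a BLAST match and annotated the rest with Blast2GO. Contig lengths, FPKM and the mean BLASTx similarity in percent were used as deposited by the authors. The FPKM columns, named by country, were matched to the populations through the paper's methods. No genome build applies, and miRNA counts were not used here.

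FPKM were summed over all contigs of a Trinity gene and compared as log2 of Zonza over St Hubert with a pseudocount of 1, for the 9459 genes with a mean of at least 1 FPKM and a threshold of 2-fold. All 47 members passed this filter. With 1 library per population no test was made. Mapped fragments were recovered from the steps of low FPKM values (99.2% of 529 contigs in Zonza and 98.4% of 512 in St Hubert within 0.1 of a whole fragment), and 95% intervals of ratios are exact binomial. Both procedures were tested on simulated data. Subunit names, gene lists and members were chosen with earlier results of these data known. Every member with a subunit or regulator name is named with its level. Among these named members, log2 ratios are given for genes past 2-fold, the 3 furthest in each direction and the highest and lowest of each group, and other ratios were chosen after values were seen. Alternatives covered pseudocounts, filters, scaling, membership and the choice of contigs. Scripts ran in Python 3.11.15, with pandas 2.3.3 and numpy 2.4.6 for tables, scipy 1.17.1 for intervals and matplotlib 3.10.9 for plots.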

Additional observations from a re-analysis of the deposited data

How the results depend on the processing

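Of 66 alternative values computed for 7 results, 53 stayed within the tolerance set for them and 13 moved. The count of members past 2-fold, 0 by gene sums, was 9 of 58 over single contigs, 3 of 46 with the highest contig of each gene, 2 of 47 with the contigs that match the text, 1 of 47 with the contigs that carry the gene's name (PSMA1), and 5 at a threshold of 1.5-fold. It stayed at 0 with pseudocounts of 0.1 and 5, without a filter, with a minimum of 5 FPKM and under both scalings. The ratio of the summed subunits, 1.02 by gene sums, was 0.933 over single contigs and by named contigs, 1.01 with equal total FPKM and 1.01 with the unmatched subunits. The SD of log2 levels in Zonza, 0.73 by gene sums, was 1.81 over single contigs, 1.57 with the highest contig, 0.65 with 1 Trinity gene per subunit and 0.54 by named contigs. The medians of all 4 groups stayed within tolerance, though that of the 20S core changed sign (0.04 by gene sums, -0.01 by named contigs and over single contigs).

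No paired analysis was possible because each population has 1 library. Leaving out a replicate was not possible for the same reason. At this depth a 1-contig member is measured to 0.07 on the log2 scale at the median and to 0.40 for the least covered one, both counting error only. Most of the values that moved did so under another choice of contigs, while pseudocounts and filters moved none.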
